A study of Mus musculus with 15 samples.

Results

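Short T-cell receptor beta chains, those whose complementarity-determining region 3 (CDR3) is 11 residues long or shorter, were drawn from 15 bulk libraries of mouse CD8 T cells. A member was every table entry with a TRBV segment and a deposited CDR3 length of at most 11, counted from the conserved cysteine to the conserved phenylalanine. An entry, called a clonotype here, is 1 V family, 1 J cluster and 1 nucleotide CDR3. The rule kept 3439 of 59364 clonotypes (5.79%), with 289 of 5545 in the tetramer-bound libraries and 3150 of 53819 in the others. Among the members, 2766 clonotypes (80.4%) had 11 residues, 561 had 10, 73 had 9 and 39 had 8, the shortest length in any table. All other clonotypes, of 12 residues or more, are called longer.

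The cells came from pooled spleen and non-draining lymph nodes of non-obese diabetic (NOD) mice aged 125 days, either wild type (WT) or Ifngr-1-mutant NOD, called mutant below. Both strains carry the NOD background, which develops autoimmune diabetes without any treatment. Cells that bound an H-2Kd tetramer loaded with the peptide IGRP206–214 and were held on a magnetic column form the TET fraction, in 3 WT and 4 mutant libraries. The CD8+CD44+ cells of the flow-through form the CD8 fraction, in 4 WT and 4 mutant libraries, and serve as the background of each comparison. The design text lists 4 mice of each strain and no repeat samples of a mouse, read here as 1 library per mouse and fraction. A TET library numbered 4 in WT was not analysed here. Total counts lay between 2536 and 60164 in TET and between 17116 and 32856 in CD8 libraries, so a clonotype with no count could hold up to 0.118% of the shallowest library and up to 0.00499% of the deepest (3 counts). The tables do not say whether a count is a read or a molecule, and intervals on shares therefore cover counting error only. WT TET 2 and mutant TET 4 stood apart, with 67.0% and 70.5% of their counts in receptors of 12 residues, against 16.1% to 40.7% in the other TET libraries. Of the WT TET 2 clonotypes, 14.3% were held at 10 times the count or more by another library, against 1.55% to 6.86% in the other TET libraries. Differences that lost their call, changed direction or moved by over 1.5 times without that pair are given with both values. A table of beta chains holds no transcript that would check the sorted cell type or the Ifngr1 mutation.

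The CDR3 is the stretch of the beta chain that lies over the peptide in most complexes of a T-cell receptor with a peptide and its MHC molecule. It is built when V, D and J segments are joined: nucleases trim the segment ends, the enzyme TdT adds bases without a template, and the trimmed D segment lies in between. A short CDR3 can arise from a short J segment, from deep trimming, from few added bases or from loss of most of the D segment. IGRP, a glucose-6-phosphatase related protein of pancreatic beta cells, is a major target of CD8 T cells in NOD mice. Ifngr1 encodes the ligand-binding chain of the interferon-gamma receptor.

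The sequences of a few short receptors show where their V and J segments meet. The largest short clonotype of each TET library is shown first, because the size of the short clonotypes separated the fractions. In every sequence below the lower-case ends are bases that the deposited alignments give to V or J, and capitals mark the bases between the V and J alignments, which hold any D segment and added bases. A base that both alignments claimed is printed in lower case.
WT TET 1, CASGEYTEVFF: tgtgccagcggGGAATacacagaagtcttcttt
WT TET 2, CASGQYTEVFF: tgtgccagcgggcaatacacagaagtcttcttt
WT TET 3, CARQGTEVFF: tgtgccagacagGGcacagaagtcttcttt
mutant TET 1, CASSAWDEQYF: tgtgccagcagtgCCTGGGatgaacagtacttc
mutant TET 2, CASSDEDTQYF: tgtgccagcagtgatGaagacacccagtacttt
mutant TET 3, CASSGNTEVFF: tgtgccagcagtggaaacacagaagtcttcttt
mutant TET 4, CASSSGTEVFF: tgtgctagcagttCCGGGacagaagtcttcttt
These 7 receptors held between 0 and 6 bases in capitals, and 5 of them ended in the TEVFF of a J segment of the TRBJ1-1 or TRBJ1-2 length class. TRBV13 supplied 5 of the 7, TRBV19 the receptor of WT TET 3 and TRBV29 that of mutant TET 4. Their counts were 77 in WT TET 1, 29 in WT TET 2 and 23 in WT TET 3. In the mutant libraries they were 48, 37, 63 and 83 in numerical order. Each of these receptors was found in 1 TET library, and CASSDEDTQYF and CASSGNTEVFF were also present in CD8 libraries, in 2 and 1 of 8.

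The short receptor found in the most CD8 libraries, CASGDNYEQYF of TRBV13 and TRBJ2-7, is shown next because 5 nucleotide sequences encoded it. It was present in 7 of 8 CD8 libraries, by which it was chosen, and in 0 of 7 TET libraries. Its mean share of CD8 counts, 0.0350%, lay below the 3-count limit of WT TET 1 (0.0604%) and WT TET 3 (0.118%). TET libraries also held only 97 to 2199 clonotypes, against 2040 to 9827 in CD8. The 0 in TET is therefore no comparison of the fractions. The letters a to e name the sequences.
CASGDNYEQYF a: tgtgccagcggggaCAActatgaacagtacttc
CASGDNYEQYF b: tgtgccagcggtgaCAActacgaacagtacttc
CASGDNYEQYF c: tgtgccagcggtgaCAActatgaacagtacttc
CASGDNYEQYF d: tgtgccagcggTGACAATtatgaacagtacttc
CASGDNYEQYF e: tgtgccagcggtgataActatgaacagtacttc
Sequence a was found in 3 libraries, c in 4 and d in 2, and b and e in 1 each. The shortest receptor held by at least 3 libraries, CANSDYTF of TRBV15, had 8 residues and a single nucleotide sequence in all 4 libraries that held it (WT CD8 2, WT CD8 3, mutant CD8 3 and WT TET 1).
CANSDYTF: tgtgcaaactccgactacaccttc
No base of it was left between the V and J alignments, so the whole CDR3 was assigned to V and J segments. Its 4 entries held 7 counts together, 3 at most in a library.

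Short receptors took a smaller part of the counts of the tetramer-bound cells than of the CD8 fraction, while the difference by clonotype did not pass its test. By clonotype, they made up 5.49%, 6.17%, 6.18% and 5.74% of WT CD8 libraries 1 to 4, and 6.0%, 5.47%, 5.71% and 5.97% of mutant CD8 libraries 1 to 4. The WT TET libraries held 8.82%, 3.97% and 4.12%, and the mutant TET libraries 3.91%, 5.46%, 5.58% and 5.34%. Values of CD8 lay between 5.47% and 6.18%, while WT TET 1 stood above every other library and mutant TET 1 below every other. Counting error was wide in the WT TET libraries, which held 9, 5 and 4 short clonotypes: the exact 95% binomial interval (Clopper-Pearson) was 4.11% to 16.1% for WT TET 1 and 1.30% to 9.02% for WT TET 2. Group means (SD) were 5.89 ± 0.340% in WT CD8 and 5.79 ± 0.250% in mutant CD8 (n = 4 each), and 5.64 ± 2.76% in WT TET (n = 3) and 5.07 ± 0.780% in mutant TET (n = 4).

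By count, the order was different. Short clonotypes held 7.16%, 7.10%, 7.45% and 6.32% of the counts in WT CD8 and 6.68%, 5.89%, 5.97% and 6.23% in mutant CD8 libraries. They held 5.64%, 0.455% and 2.13% in WT TET and 2.38%, 3.33%, 3.14% and 0.268% in mutant TET libraries. Every TET library lay below every CD8 library, with WT TET 1 the closest to them. A count is a measure of RNA, so more cells of a clonotype and more RNA per cell cannot be told apart. The fraction means were 2.48 ± 1.84% in TET (n = 7) and 6.60 ± 0.586% in CD8 (n = 8).

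**Figure D1:**
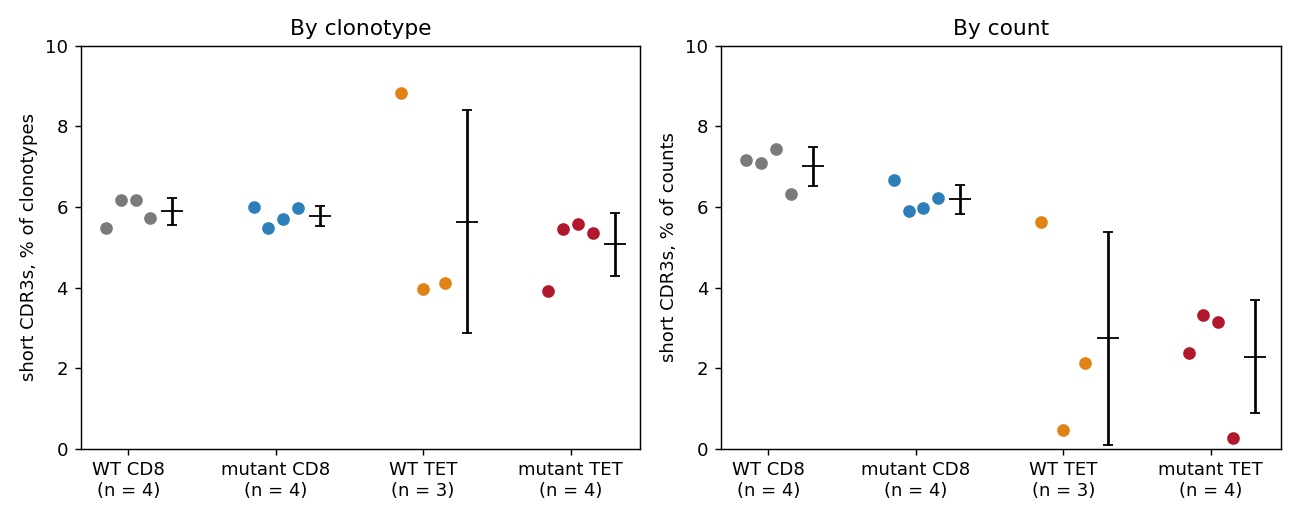
Share of short CDR3s (11 residues or fewer) in each library, as % of clonotypes (left) and % of counts (right), by strain and fraction. Points are libraries, and the black marks are group means with SD. By clonotype the groups overlap around 5.07% to 5.89%; by count all 7 TET libraries lie below the 8 CD8 libraries.

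Averaged over strains, the share of counts differed by -4.09 percentage points between TET and CD8 (two-sided exact permutation of the fraction within strain, p = 0.000408, the smallest that 2450 arrangements give, Benjamini-Hochberg adjusted p = 0.0110 over 27 exact tests). With the TET and CD8 libraries that carry one number as a block, 7 pairs that are read as 1 mouse each although the labels share only a number, the difference was -4.20 points, and its adjusted p of 0.0527 is no longer under 0.05 in the exact sign-flip test. That is the smallest value that 7 pairs allow this result with the other p values unchanged, so this test could not pass. The share of clonotypes differed by -0.484 points (exact permutation p = 0.546, adjusted 0.776). Without WT TET 1 that difference was -1.28 points and passed the test (exact permutation, adjusted p = 0.0171). It was also wider without single-count clonotypes, at -1.39 points (exact permutation p = 0.0380, adjusted 0.0788), and at equal depth, at -1.28 points (exact permutation p = 0.0547, adjusted 0.103), and neither passed. Without WT TET 2 and mutant TET 4 it was -0.112 points. No strain difference passed in either fraction, and none could have. The smallest p of an exact permutation between strains is 0.0286, which is too large for the correction over these 27 tests. The strain results therefore do not show that the shares were equal. The mutant minus WT difference in the share of counts was -0.460 points in TET (exact permutation p = 0.857) and -0.815 points in CD8 (exact permutation p = 0.0571, adjusted 0.110), where 1 mutant library lay above the lowest WT library. For the share of clonotypes it was -0.566 points in TET (exact permutation p = 0.829) and -0.108 points in CD8 (exact permutation p = 0.657). Without WT TET 2 and mutant TET 4 the TET values were -1.49 points by clonotype and -0.932 by count. They turned positive without WT TET 1, at 1.03 points by clonotype and 0.988 by count, and by count also without mutant TET 4 (0.210). The strain effects in the 2 fractions differed by -0.405 points by clonotype and 0.582 points by count (exact permutation p = 0.914 and 0.771 over 7 pairs of one number), and by -1.38 and 0.194 points without WT TET 2 and mutant TET 4.

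The boundary at 11 residues lay next to the length that held the most TET counts. Receptors of 12 residues, just outside the rule, took 40.4 ± 20.9% of TET counts, from 16.1% in WT TET 3 to 70.5% in mutant TET 4, and 11.6 ± 1.04% of CD8 counts. Receptors of 11 residues, just inside it, took 1.97 ± 1.61% and 5.14 ± 0.606%. Receptors of 10 residues took 0.365 ± 0.354% and 1.25 ± 0.386%. By clonotype the 12-residue receptors made up 14.4 ± 4.89% of TET and 10.9 ± 0.624% of CD8 libraries. Moving the limit to 12 therefore turned the difference in counts to 24.7 points in the other direction (exact permutation, adjusted p = 0.0220), and moving it to 10 gave -0.940 points (adjusted p = 0.0110).

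**Figure D2:**
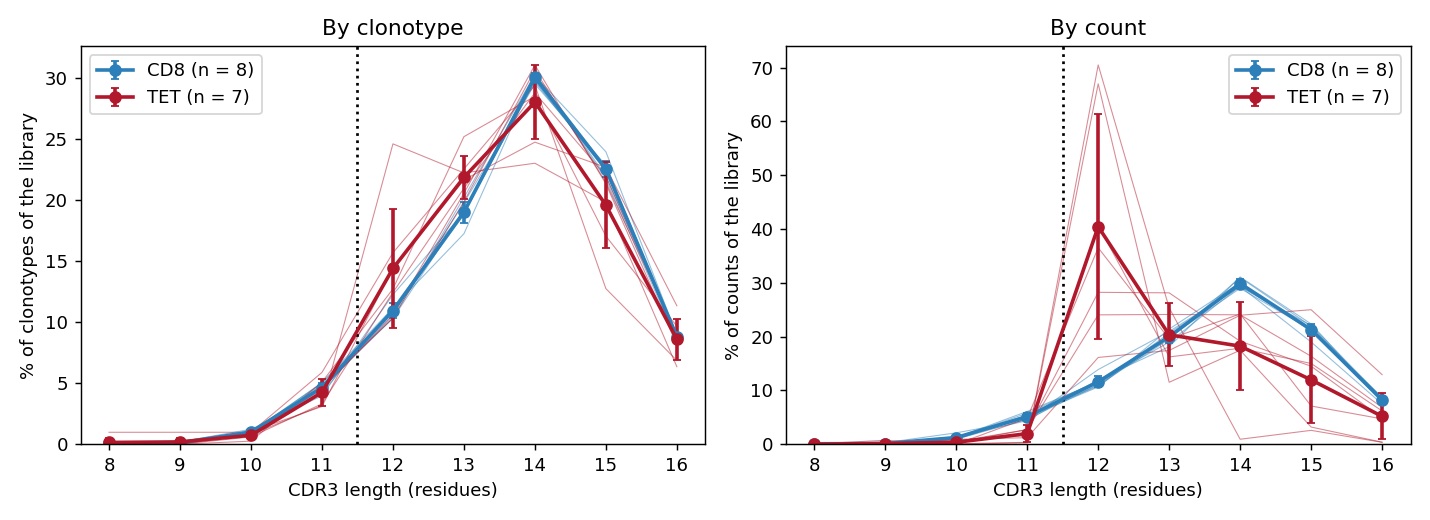
CDR3 length against the share of clonotypes (left) and of counts (right) in CD8 and TET libraries. Thin lines are libraries, thick lines with points are fraction means with SD, and the dotted line marks the limit of 11 residues. TET counts rise from 1.97% at 11 residues to 40.4% at 12 residues, and CD8 counts from 5.14% to 11.6%.

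Short clonotypes had a lower mean count than longer ones in every TET library, which did not pass the test, and a slightly higher one in every CD8 library, which did. The mean count of a short clonotype was 31.1, 13.6 and 13.5 in WT TET libraries 1 to 3, against 50.4, 123 and 26.7 for longer ones. In the mutant TET libraries it was 10.6, 6.22, 7.58 and 7.67, against 17.6, 10.4, 13.8 and 161. All 7 TET libraries had the smaller mean among short clonotypes, with the widest gap in mutant TET 4. On the log2 scale the difference of means was -1.66 on average (exact sign-flip p = 0.0156, the smallest that 7 libraries give, adjusted 0.0527), which does not pass. Without WT TET 2 and mutant TET 4 it was -0.81 (exact sign-flip, adjusted p = 0.121). The median counts were closer: short against longer medians were 16 and 28, 15 and 11, and 15 and 21 in WT TET, and 7 and 6, 3 and 4, 2 and 3, and 1 and 2 in mutant TET. In CD8 the mean was higher for short clonotypes in 8 of 8 libraries, by 0.18 on the log2 scale (exact sign-flip p = 0.00781, adjusted 0.0352). WT CD8 1 had the widest CD8 gap, 10.9 against 8.24, and mutant CD8 3 held 2.65 against 2.53. Leaving out any 1 CD8 library gave an adjusted p of 0.0527 for this call. With the other p values unchanged, 7 libraries allow it no smaller one. With median in place of mean counts the value was 0.17 (exact sign-flip, adjusted p = 0.397). The gap between short and longer clonotypes itself differed between the fractions by -1.84 on the log2 scale (exact permutation p = 0.000408, adjusted 0.000680 over 5 such comparisons, which were chosen after the values were seen), and by -1.0 without WT TET 2 and mutant TET 4 (adjusted p = 0.00317). The directions in TET and between the fractions rest on the limit. With the 12-residue receptors counted as short, the TET difference turned to 1.60 and that between the fractions to 1.40 on the log2 scale.

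No short clonotype of a TET library exceeded 100 counts, while 94 longer ones did. The highest rank of a short clonotype by count was 18, 47 and 44 in WT TET libraries 1 to 3 and 36, 21, 26 and 30 in mutant TET libraries 1 to 4. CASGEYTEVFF, the largest by share, held 1.55% of WT TET 1 (exact binomial interval 1.23% to 1.93%), and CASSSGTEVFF, the largest by count, held 0.138% of mutant TET 4. In 1 CD8 library the largest clonotype of all was a short one, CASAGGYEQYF of TRBV13, with 93 counts in WT CD8 3. WT CD8 1 held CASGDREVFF with 79 counts, or 0.462% of its counts.

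The V families of the short receptors were tested against those of the longer ones, counting each clonotype once. V, D and J bases add up to the CDR3 length, so segment use is not independent of the rule, and these differences describe what short CDR3s are made of. In CD8 libraries TRBV13, TRBV20, TRBV29 and TRBV31 took a larger part of the short clonotypes. TRBV13 made up 54.5%, 49.4%, 48.4% and 49.1% of the short clonotypes of WT CD8 libraries 1 to 4 and 43.7%, 41.9%, 43.5% and 50.3% of those of mutant CD8. Its share of the longer clonotypes lay between 33.4% and 36.6%, below every value for short ones. The difference averaged 13.2 percentage points and was positive in 8 of 8 libraries (exact sign-flip p = 0.00781, adjusted 0.0352, or 0.0527 without any 1 library).

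With edgeR's quasi-likelihood test and the library as a block, 13 of 15 families tested in CD8 differed between short and longer clonotypes, that is 86.7% of those tested. A log2 fold change here compares a family's part of the short clonotypes with its part of the longer ones. The classes are made by length, to which the V bases add, so these p values only describe the make-up of the classes. The 4 higher families (26.7%) were TRBV20, at 1.04 (SE 0.17, adjusted p = 7.9e-08), TRBV31, at 0.79 (SE 0.20, adjusted p = 0.000169), TRBV29, at 0.63 (SE 0.10, adjusted p = 3.35e-08) and TRBV13, at 0.47 (SE 0.05, adjusted p = 8.58e-15). TRBV29 rose from 5.81 ± 0.443% of longer to 8.90 ± 1.95% of short clonotypes, and TRBV20 from 1.65 ± 0.290% to 3.07 ± 0.942%. The 9 lower families (60%) were led by TRBV2 (-1.51), TRBV3 (-1.45), TRBV1 (-1.21) and TRBV5 (-1.20). TRBV1 went from 6.32 ± 1.00% of longer to 2.83 ± 1.01% of short clonotypes. The others were TRBV16 (-0.76), TRBV4 (-0.50), TRBV17 (-0.47), TRBV12 (-0.37) and TRBV14 (-0.30), with edgeR adjusted p up to 0.0301. The TRBV14 value turned to 0.14 with a limit of 12 residues. TRBV15 (-0.12) and TRBV19 (-0.22) did not pass.

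Only TRBV13 had enough short clonotypes for this test in TET libraries, where the log2 value was -0.010 (SE 0.09, edgeR adjusted p = 0.938; 0% of the 1 family tested). It made up 55.6%, 60.0% and 25.0% of the short clonotypes in WT TET and 46.2%, 50.8%, 41.8% and 33.3% in mutant TET libraries. Its part of the longer clonotypes was 54.8%, 66.1% and 55.9%, and 44.8%, 45.2%, 45.8% and 47.6%. Short exceeded longer in 3 of 7 libraries, with a mean difference of -6.81 points (exact sign-flip p = 0.234). Averaged over strains, TET minus CD8 for this short minus longer difference in the TRBV13 share was -20.7 points (exact permutation p = 0.000408, adjusted 0.000680 over the same 5 comparisons). Without single-count clonotypes that value was -15.7 (exact permutation, adjusted p = 0.0871), and it does not pass there. With a limit of 12 residues it turned to 0.947 points.

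**Figure D3:**
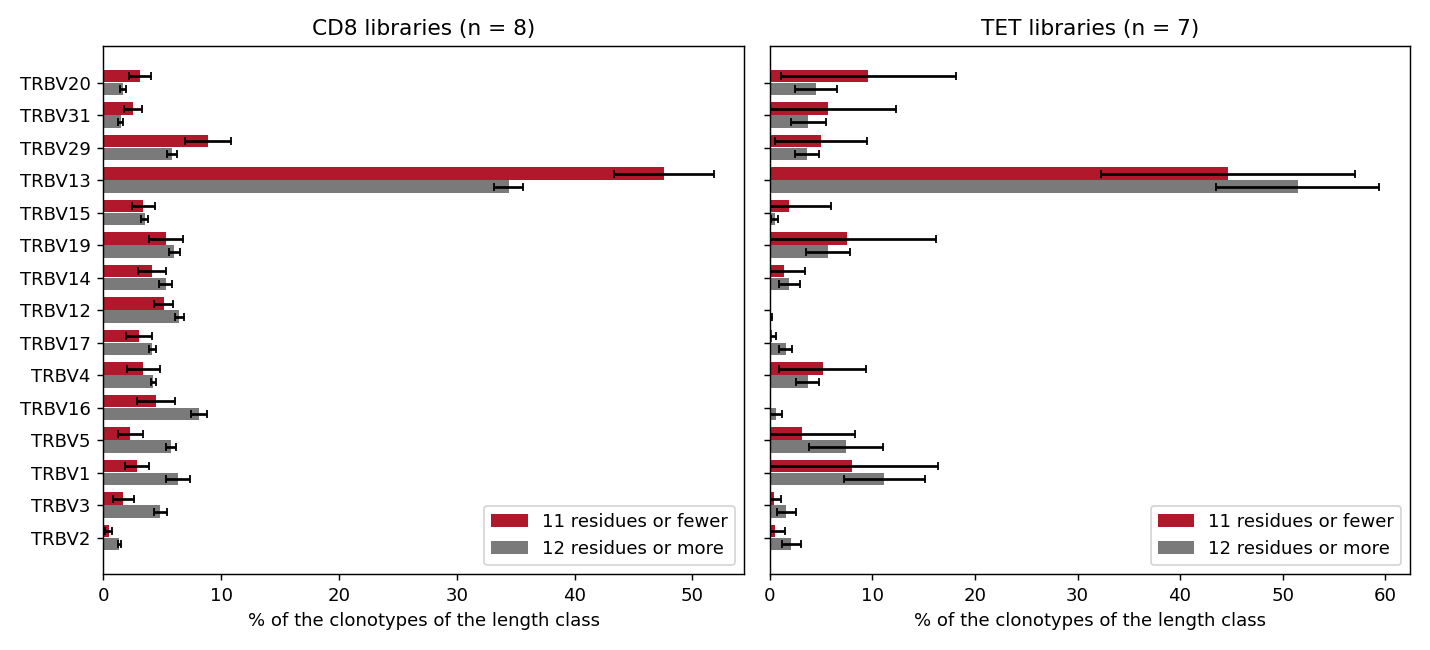
Share of short (red) and longer (grey) clonotypes that each V family supplied in CD8 libraries (left) and TET libraries (right), as means with SD, for the 15 families tested in CD8. In CD8 the TRBV13 bars stand at 47.6% of short and 34.4% of longer clonotypes, and in TET at 44.7% and 51.5%, within their SD.

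The 289 short TET clonotypes came from 16 V families, and 255 of them (88.2%) from the 7 families used most. TRBV13 supplied 133, TRBV20 supplied 30, TRBV1 and TRBV31 supplied 22 each, and TRBV4, TRBV19 and TRBV29 supplied 16 each. TRBV12 and TRBV16 supplied 0, while they supplied 158 and 152 of the 3150 short CD8 clonotypes. A count of 0 among the 289 clonotypes pooled over libraries allows a share of up to 1.04% of that pool. This limit does not hold for a single library: the WT TET libraries supplied 9, 5 and 4 of the 289, and mutant TET 2 and 3 supplied 120 and 91. The longer TET clonotypes had few of both as well, 4 of TRBV12 and 26 of TRBV16, with edgeR log2 values of -6.34 and -4.04 against longer CD8 clonotypes (adjusted p = 2.14e-38 and 6.23e-37). In the edgeR fit of TET against CD8 over all rows of V family and length class, 14 of 17 rows tested were called (82.4%; 35.3% higher and 47.1% lower in TET), and 2 of those 17 were short. Short TRBV29 was lower in TET, with a log2 value of -0.88 (SE 0.38) and an adjusted p of 0.0260, beside -0.88 for longer TRBV29. Short TRBV13 had -0.14 (adjusted p = 0.410), while longer TRBV13 had 0.53 (adjusted p = 4.82e-11). The TRBV29 call was lost without mutant TET 1, mutant TET 2 or mutant CD8 3, one at a time, and when single-count clonotypes were dropped. With WT TET 2 and mutant TET 4 left out, more rows passed the filter, and 5 short families were called, 2 higher and 3 lower in TET. In the exact test the TRBV13 share of short clonotypes differed by -2.66 points between TET and CD8 (exact permutation p = 0.688), and by -4.33 points without WT TET 2 and mutant TET 4.

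Between strains, no short V family was called. In CD8, 29 rows were tested and 0 were called (0%), and DESeq2 called 0 short families as well. Of the 12 short families in that fit, TRBV16 alone had an unadjusted p under 0.05, with a log2 value of 0.73 in mutant over WT (edgeR adjusted p = 0.200). In TET no short family passed the filter on low numbers, and 1 of 8 rows tested was called (12.5%), a row of longer clonotypes. The TRBV13 share of short clonotypes was 50.3 ± 2.79% in WT CD8 and 44.9 ± 3.69% in mutant CD8 (exact permutation p = 0.114), and 46.9 ± 19.1% in WT TET and 43.0 ± 7.45% in mutant TET (exact permutation p = 0.714). Mutant minus WT in TET went from -3.83 to 5.97 points without WT TET 2 and mutant TET 4.

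Short receptors used the shortest J segment of each cluster more than longer receptors did. The tables name only the J cluster, so J segments were read as length classes, from the deposited J length against the RefSeq lengths of assembly GRCm38.p6. In CD8, TRBJ2-7, the shortest of cluster 2, supplied 44.2 ± 2.62% of short and 20.7 ± 1.30% of longer clonotypes, and the pair TRBJ1-1 or TRBJ1-2, the shortest class of cluster 1 found, supplied 17.2 ± 2.20% and 11.8 ± 0.796%. Every other class was lower among short clonotypes: TRBJ2-1 went from 14.5 ± 0.673% to 8.34 ± 1.11%, TRBJ2-2 from 6.80 ± 0.461% to 2.37 ± 0.661% and TRBJ1-6, the longest class, from 3.49 ± 0.195% to 1.20 ± 0.480%. In TET, TRBJ2-7 supplied 30.3 ± 8.91% of short and 17.5 ± 3.44% of longer clonotypes. The TRBJ1-1 or TRBJ1-2 class supplied 33.8 ± 22.1% and 15.6 ± 3.96%, with 4 of the 5 short clonotypes of WT TET 2 in it. These J shares follow from the length rule and were given no test.

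TRBJ2 supplied a smaller part of the short clonotypes of TET than of CD8, and in mutant libraries also of the longer ones. TRBJ2 supplied 68.8%, 72.3%, 72.0% and 73.6% of the short clonotypes of WT CD8 libraries and 77.4%, 76.6%, 74.5% and 75.8% of those of mutant CD8. It supplied 55.6%, 20% and 50% in WT TET, that is 5 of 9, 1 of 5 and 2 of 4 clonotypes. In mutant TET it supplied 71.8%, 67.5%, 63.7% and 76.2%. The WT TET values lay below all others, and the mutant TET values overlapped those of CD8. Of the longer clonotypes, TRBJ2 supplied 55.2%, 54.4%, 56.2% and 64.0% in mutant TET, against 72.5 ± 1.35% in mutant CD8 (n = 4). In WT it supplied 68.7 ± 8.09% of longer clonotypes in TET (n = 3) and 70.8 ± 1.83% in CD8 (n = 4). The comparison of short minus longer between the fractions, given below, did not pass. For short clonotypes, TET minus CD8 was -18 percentage points, averaged over strains (exact permutation p = 0.00122, adjusted 0.0165). With same-numbered libraries as a block it was -17.7 points (exact sign-flip, adjusted p = 0.0767). This did not pass and could not, since 7 pairs allow this result no adjusted p under 0.0527 with the other p values unchanged. Without WT TET 2 the difference averaged over strains was -12.6 points, without mutant TET 4 as well -13.6 points, and with a limit of 12 residues -5.09 points (exact permutation, adjusted p = 0.188). Mutant minus WT was 28.0 points in TET and 4.42 points in CD8, each with groups that did not overlap (exact permutation p = 0.0286, the smallest possible, adjusted 0.0767 in both), and neither could pass the correction at that p. The TET value rests on 18 short WT clonotypes, was 14.9 points without WT TET 2 and mutant TET 4, and turned to -6.91 points with a limit of 12 residues. Against longer clonotypes of the same library, the TRBJ2 share of short ones was higher in 7 of 8 CD8 libraries, by 2.21 points on average (exact sign-flip p = 0.0781), and in 4 of 7 TET libraries, with a mean of -4.44 points (exact sign-flip p = 0.672), or 1.23 points without WT TET 2 and mutant TET 4.

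A D segment was named in a minority of short receptors and in most longer ones. The smallest D match in the tables had 5 bases, so a receptor without a named D may still hold a shorter piece. A D segment was named in 28.6%, 31.1%, 33.6% and 34.3% of the short clonotypes of WT CD8 libraries and in 30.4%, 34.1%, 34.7% and 34.4% of those of mutant CD8. The WT TET libraries had 22.2%, 20% and 0%, and the mutant TET libraries 38.5%, 23.3%, 33.0% and 38.1%. Longer clonotypes had a named D in 77.2 ± 0.692% of CD8 (n = 8) and 73.2 ± 3.57% of TET (n = 7), above every value for short ones. The short minus longer difference averaged -44.6 points in CD8 (0 of 8 positive) and -48.2 points in TET (0 of 7 positive). A short CDR3 leaves little room for a match of 5 bases, so these differences follow from the length rule and are given as a description.

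The named share was higher at greater lengths: in CD8 it was 18.9% at 8 residues (7 of 37), 24.6% at 9, 23.3% at 10, 35.9% at 11, 52.3% at 12 and 87.8% at 15. The values at 8, 9 and 10 residues lie within each other's counting error. The bases between V and J averaged 4.97 ± 0.253 in short and 10 ± 0.0908 in longer CD8 clonotypes. The J part shrank from 18.9 ± 0.0543 to 15.2 ± 0.163 bases and the V part from 13.4 ± 0.0882 to 12.5 ± 0.129, so the middle lost more bases than either end. Among CD8 clonotypes with a named D, TRBD1 was named in 69.4 ± 4.19% of short and 55.3 ± 1.23% of longer ones. TET minus CD8 for the named share of short clonotypes was -9.0 points (exact permutation p = 0.0355, adjusted 0.0799), and mutant minus WT was 19.1 points in TET (exact permutation p = 0.0571, adjusted 0.110) and 1.53 points in CD8 (exact permutation p = 0.371). None of these 3 passed the correction, and the TET strain difference turned to -7.53 points with a limit of 12 residues.

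**Figure D4:**
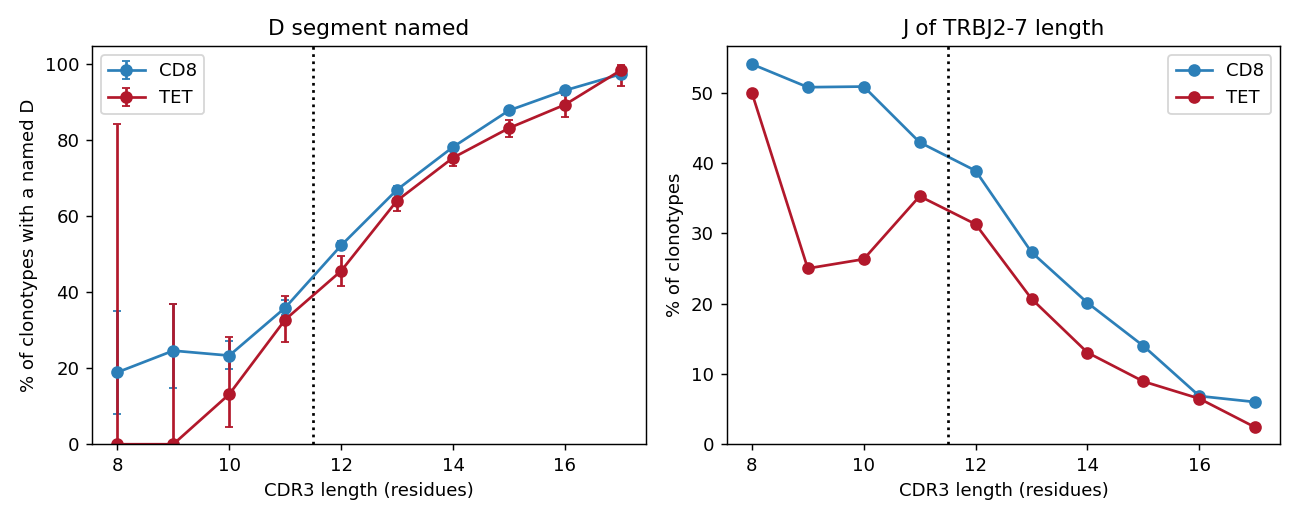
Share of clonotypes with a named D segment (left, with exact 95% binomial intervals) and with a J of the TRBJ2-7 length (right), against CDR3 length, pooled over the libraries of each fraction. In CD8 the D share climbs from 18.9% at 8 residues to 87.8% at 15, and the TRBJ2-7 share falls from 54.1% to 14.0%; the TET points at 8, 9 and 10 residues rest on 2, 8 and 38 clonotypes.

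At the fourth residue, short TRBV13 receptors of every CD8 library carried glycine more often and serine less often than longer ones, and no test was made. Only the V family is named, and which TRBV13 gene each receptor used was not tested. In CD8 glycine stood there in 49.3 ± 3.61% of short and 36.1 ± 0.776% of longer TRBV13 clonotypes, and serine in 34.9 ± 2.65% and 53.7 ± 1.02%. In TET the glycine share was 53.8 ± 35.9% of short and 23.8 ± 5.52% of longer TRBV13 clonotypes, on 1 to 61 short ones per library, and mutant TET 4 went the other way, with 0% of short and 21.5% of longer ones. CASG receptors of this kind include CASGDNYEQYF and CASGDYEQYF. Short receptors of CD8 ended in EQYF, the end of TRBJ2-7, in 39.0% of clonotypes, against 20% of longer ones, and in EVFF in 12.2% against 7.78%. In TET the EVFF share was 16.3% of the 289 short and 11.4% of longer clonotypes.

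Short CD8 receptors recurred in other libraries more often than longer ones. Sharing is counted over receptors, a receptor being 1 V family, 1 J cluster and 1 amino acid CDR3, and a shared receptor adds to each library that holds it. Of the short receptors of WT CD8 libraries 1 to 4, 29.5%, 21.1%, 22.0% and 22.1% were also found in another CD8 library. In mutant CD8 these values were 23.0%, 21.4%, 17.7% and 23.7%. The longer receptors of the same libraries had 11.5 ± 1.40%, from 9.89% to 14.2%, below every short value. The difference averaged 11 points and was positive in 8 of 8 libraries (exact sign-flip p = 0.00781, adjusted 0.0352, or 0.0527 without any 1 library). Libraries that hold the same receptor are not independent in this measure, so its p values, here and below, are descriptive only. The WT TET libraries had 11.1%, 0% and 0% and the mutant TET libraries 5.13%, 8.62%, 3.37% and 20%, against 18 ± 3.50% for longer receptors. The 0% values rest on 4 receptors each. Short was higher in 1 of 7 TET libraries, mutant TET 4, and the mean difference of -11.1 points did not pass (exact sign-flip p = 0.0313, adjusted 0.0767). In mutant TET 4 the gap was 0.441 points and rested on 4 shared receptors of 20. Of these 4, 1 was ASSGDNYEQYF of TRBV10, which lacks the first cysteine and held 1 count each in mutant TET 2 and mutant TET 4. Sharing was not recounted without this incomplete entry. TET minus CD8 for this short minus longer difference was -22.8 points (exact permutation p = 0.000408, adjusted 0.000680 over 5 comparisons chosen after the values were seen). With a limit of 12 residues the TET difference turned to 8.19 points and that between the fractions to 0.112. Clonotypes held at 10 times the count or more by another library made up 2.82% of longer and 0.692% of short TET clonotypes. In CD8 they made up 0.487% and 0.540%. Such clonotypes add to sharing, and the comparison between the fractions was not repeated without them.

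**Figure D5:**
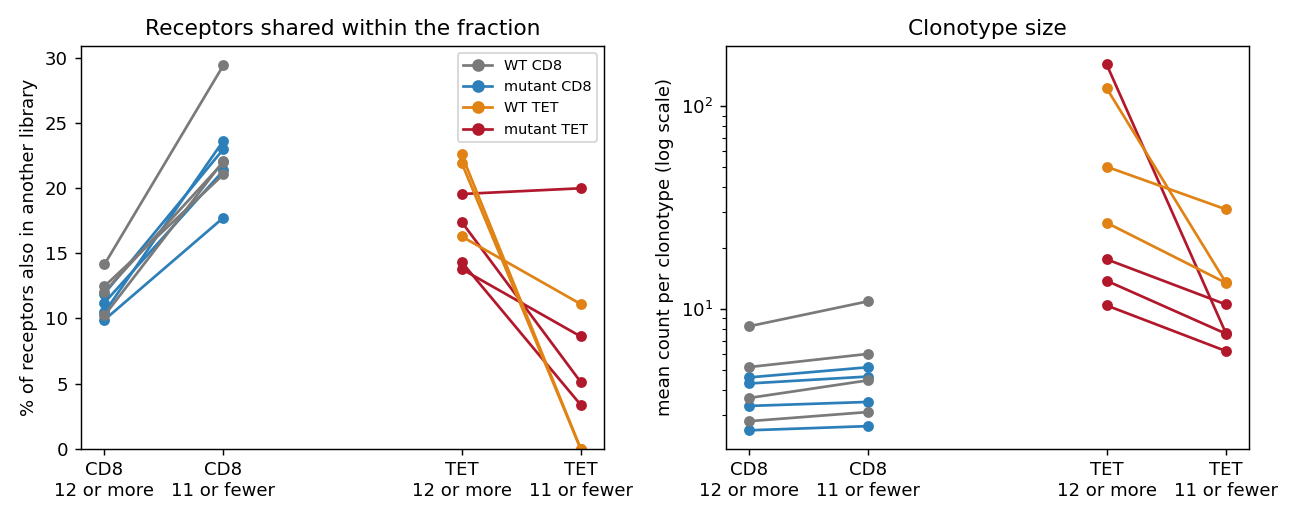
Share of receptors also found in another library of the fraction (left) and mean count per clonotype on a log axis (right), for longer (12 residues or more) and short (11 or fewer) CDR3s. Each line joins the 2 values of a library. In CD8 all 8 lines rise in both panels; in TET 6 of 7 lines fall on the left and 7 of 7 on the right.

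Over all CD8 libraries, 267 of 2617 short receptors (10.2%) were found in at least 2 libraries, against 2431 of 45858 longer receptors (5.30%). Of these 267, 171 were found in both strains, 60 in mutant libraries alone and 36 in WT libraries alone, and no test of that split was made. The 2431 longer receptors had the same order, with 1476 in both strains, 595 in mutant libraries alone and 360 in WT libraries alone. More than 1 nucleotide sequence encoded 204 of the 267 short receptors (76.4%) and 1829 of the 2431 longer ones (75.2%), so this share was not particular to short receptors. TRBV13 supplied 71.5% of the 267 and 42.1% of all short CD8 receptors. The share found in at least 2 libraries was 9.09% at 8 residues (3 of 33), 1.67% at 9 (1 of 60) and 9.57% at 10, and went from 10.6% at 11 residues to 8.05% at 12, 6.06% at 14 and 2.16% at 16.

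The 12 short receptors found in at least 5 CD8 libraries were all TRBV13 and TRBJ2. After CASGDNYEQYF in 7 came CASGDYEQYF, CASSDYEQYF and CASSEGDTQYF in 6, and 8 receptors in 5, of which the 4 with the highest mean share were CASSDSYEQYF, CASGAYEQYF, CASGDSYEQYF and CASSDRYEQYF. Of these 8 named receptors, all but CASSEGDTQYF ended in YEQYF of TRBJ2-7. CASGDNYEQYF held 28 counts in mutant CD8 2, 24 in mutant CD8 4, 12 in WT CD8 3, 7 in WT CD8 2, 5 in mutant CD8 1 and 2 each in WT CD8 4 and mutant CD8 3. Its mean share of the counts was 0.0350 ± 0.0340% (n = 8). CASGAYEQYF was encoded by 6 sequences over 5 CD8 libraries, and 1 of these sequences also appeared in WT TET 2 with 15 counts. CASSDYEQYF held 1 count in mutant TET 3 and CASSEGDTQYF 3 counts in mutant TET 2, and the other 5 named ones had none in TET. All 8 were picked by their number of CD8 libraries, so these TET counts are no comparison of the fractions.

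In the TET libraries 10 of 271 short receptors (3.69%) were found in 2 libraries and none in 3, against 368 of 4731 longer receptors (7.78%), which reached up to 6 libraries. Of the 10, 9 were shared among mutant libraries and 1 across strains. Of these 9, 1 was the incomplete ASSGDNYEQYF. The WT TET libraries held only 4 to 9 short clonotypes each, against 21 to 120 in mutant TET. The 368 longer receptors split alike: 321 among mutant libraries alone, 43 across strains and 4 among WT libraries alone. The short receptor shared across strains was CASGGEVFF of TRBV13, with 9 residues. It had 37 counts (0.745%) in WT TET 1 and 4 counts in mutant TET 2, and was encoded by a different sequence in each. The capitals below mark the bases between V and J.
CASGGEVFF in WT TET 1: tgtgccagcggtgGagaagtcttcttt
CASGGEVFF in mutant TET 2: tgtgccagcggAGGagaagtcttcttt
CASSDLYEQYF also had a sequence of its own in each of 2 mutant libraries, TET 2 and TET 4, with 3 and 9 counts. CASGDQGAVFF held 8 counts in each of mutant TET 1 and 2, and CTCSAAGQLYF of TRBV1 held 5 and 8 in the same pair. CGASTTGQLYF of TRBV20 held 5 and 7 counts in mutant TET 2 and 3, and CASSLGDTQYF of TRBV29 held 1 and 4 there. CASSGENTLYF held 4 and 1 counts in mutant TET 2 and 4, and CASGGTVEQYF held 3 and 1 in mutant TET 2 and 3. Apart from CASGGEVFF, none of these 8 shared receptors, named out of the 10, exceeded 9 counts in a TET library.

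Of the short TET receptors, 74 were also found in a CD8 library, which is 27.3% of the 271 in TET and 2.83% of the 2617 in CD8. Among longer receptors 862 were found in both, 18.2% of TET and 1.88% of CD8. Taken per TET library, the 2 classes lay closer: 25.0 ± 3.19% of short and 23.0 ± 4.98% of longer receptors were found in some CD8 library (n = 7). In the CD8 library with the same number, 1.77 ± 1.89% of short and 4.36 ± 1.24% of longer receptors were found. Neither difference was tested.

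Some short TET entries were incomplete or closely resembled a far larger clonotype of the same library. A CDR3 without its first cysteine or last phenylalanine made up 9 of 289 short TET clonotypes (3.11%) and 0.894% of longer ones, and 1.87% and 0.821% in CD8. LPAVIKNTLYF, such an entry, held 64 of the 280 short counts of WT TET 1. All 4 short TET entries of TRBV10 lacked the cysteine. An entry 3 bases shorter than a clonotype of the same library with at least 10 times its count made up 10 of 289 short TET clonotypes (3.46%) and 0.342% of longer ones. In mutant TET 4, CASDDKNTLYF with 23 counts stood beside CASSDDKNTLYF with 2351, and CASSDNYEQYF with 16 beside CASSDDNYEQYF with 1788. Their part in the results was not tested beyond leaving them out: the difference in the share of counts was then -4.26 points without incomplete CDR3s and -4.10 points without the entries 3 bases shorter, both with an exact permutation adjusted p of 0.0110.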

How the data were processed

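TCRβ amplicons made by rapid amplification of cDNA ends, with molecular identifiers, were sequenced in 15 libraries, per the labels' protocols. Each library has a table, deposited by the authors, that lists the count of every nucleotide CDR3 with its V family, J cluster, D segment where one was named, CDR3 length and segment alignments. Which aligner, caller and build were used is not given in the sources used here. The deposited fraction of each clonotype was not used, and shares were recomputed from the counts. Before any share was taken, 4 alpha chain entries with 6 counts were left out. The J length of a table minus 19 bases matched a RefSeq J length (GRCm38.p6) in all but 3 clonotypes.

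Differences of group means were tested by exact permutation, two-sided, over 35 splits for 3 against 4 libraries and 70 for 4 against 4. For TET against CD8 the fraction labels were permuted inside each strain (2450 arrangements), and short with longer clonotypes by flipping the sign of the difference within libraries. Benjamini-Hochberg adjusted values cover 27 tests, and a call needed an adjusted p under 0.05. Numbers of clonotypes per V family and length class were tested with edgeR's quasi-likelihood test (edgeR 4.0.16, R 4.3.3), with the number of clonotypes as library size, no dispersion trend and the filterByExpr minimum of 10. Alternatives were DESeq2 1.42.0, TMM factors, no filter, other length limits, equal depth, each library left out, and those given below. Scripts were tested on simulated data. The design text says that no 2 samples come from 1 mouse, which is read as within a fraction, since 4 mice per strain gave both fractions. Same-numbered TET and CD8 libraries were therefore blocked as 1 mouse in an alternative. The labels share only a number, and deviations from the group means over 5 measures correlated with r from -0.837 to 0.431, below 0 in 5 of 7 pairs, so the pairing is a reading of the design text. Named V families were those past the threshold in a comparison of short with longer or of TET with CD8, plus TRBV13. Named receptors were the largest short clonotype of each TET library, up to 8 found in the most TET and in the most CD8 libraries (ties by mean share), and the shortest found in at least 3. The members, comparisons and rules were chosen with earlier results of these data known.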

Additional observations from a re-analysis of the deposited data

Results flagged for a closer look

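In 6 of the 30 groups of 4 libraries examined, 1 library stood apart from the other 3 by Dixon's criterion, which chance alone meets in about 1 in 20 groups. Short CDR3s made up 3.91% of the clonotypes of mutant TET 1, against 5.34% to 5.58% in the other mutant TET libraries. TRBV13 supplied 54.5% of the short clonotypes of WT CD8 1, against 48.4% to 49.4% in the other WT CD8 libraries. A D segment was named in 30.4% of the short clonotypes of mutant CD8 1, against 34.1% to 34.7%, and its short minus longer difference was -46.5 percentage points, against -43.3 to -43.2. In WT CD8 1, TRBJ2 was less used by short than by longer clonotypes, at -4.28 points, against 2.13 to 2.86 in the other WT CD8 libraries. In mutant TET 4 the log2 mean count of short clonotypes lay at -4.39 relative to longer ones, against -0.87 to -0.74 in the other mutant TET libraries.

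The short minus longer difference itself differed between the fractions in 3 measures, although none of the 3 passed its test within TET alone. TET minus CD8, for the short minus longer difference, was -20.7 points for the TRBV13 share, -22.8 points for the share of receptors found in another library and -1.84 on the log2 scale for the mean count. Each had an exact permutation p of 0.000408, the smallest possible. For the share of receptors found in another library that p is descriptive only, since the libraries are not independent in it. With a limit of 12 residues these 3 values turned to 0.947, 0.112 and 1.40, and without single-count clonotypes the TRBV13 value was -15.7 and did not pass (exact permutation, adjusted p = 0.0871). The TRBJ2 and D shares were compared in the same way and gave -9.45 and -5.08 points (exact permutation p = 0.277 and 0.461), or -3.78 and -8.23 without WT TET 2 and mutant TET 4. All 5 comparisons were chosen after the values were seen.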

How the results depend on the processing

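The limit of 11 residues moved the results most. With a limit of 12, TET minus CD8 turned to 3.45 points for the share of clonotypes, 24.7 for the share of counts, 16.9 for TRBV13 (exact permutation, adjusted p = 0.00551) and -5.09 for TRBJ2, which no longer passed. Mutant minus WT in TET became 0.530 for the share of counts, -6.91 for TRBJ2 and -7.53 for named D segments. Short minus longer in TET became 10.9 for TRBV13, 6.06 for TRBJ2, 8.19 for shared receptors and 1.60 (log2) for the mean count. The same differences between the fractions became 0.947, 4.95, 0.222 (named D), 0.112 (shared) and 1.40. V families called were 10 in TET against CD8, 1 between strains in TET and 2 for short against longer in TET, and TRBV14 had 0.14 in CD8. With a limit of 10, the CD8 mean count difference was 0.25, and with medians 0.17, neither past the threshold.

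With same-numbered libraries as a block (a pairing read from the design text), the share of counts gave -4.20 and TRBJ2 -17.7 points, neither of which passed. Neither could have passed, since 7 pairs allow no adjusted p under 0.0527 in the exact sign-flip test. Between strains, where a number marks no shared animal, the block gave 0.210 for the share of counts in TET. The block changed no other call.

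Without single-count clonotypes the TRBV13 share differed by 1.58 points between fractions and 3.33 between strains in TET, shared receptors in TET gave -10.0 (exact sign-flip, adjusted p = 0.0469), and the differences between fractions were -15.7 for TRBV13 and 1.25 for named D. Counting receptors by amino acid gave 0.823 for TRBV13 between fractions. Without WT TET 2 and mutant TET 4, TRBV13 between strains in TET was 5.97 and TRBJ2, short minus longer in TET, 1.23. Short V families called between fractions numbered 1, against 2 with TMM factors, 9 with no filter, 7 by counts, 0 without single-count clonotypes and 5 without that pair of libraries, and between strains in TET 0, against 1 with no filter.

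Leaving out 1 library at a time gave these ranges. The share of clonotypes spanned -1.28 to -0.0667 between fractions, -1.40 to 1.03 between strains in TET and -1.35 to 1.42 for the difference of strain effects. The share of counts spanned -1.60 to 0.988 and -0.490 to 2.07 for the latter 2. The TRBV13 share spanned -5.94 to 2.81 between fractions and -14.8 to 2.74 between strains in TET, and named D -11.0 to -5.48 between fractions, past the threshold without mutant TET 1. Short minus longer in CD8 spanned 12.5 to 14.0 for TRBV13, 1.63 to 3.14 for TRBJ2 (past the threshold without WT CD8 1), -44.9 to -44.0 for named D, 10.4 to 11.5 for shared receptors and 0.15 to 0.20 for the mean count. TRBJ2 in TET spanned -7.94 to 3.06, named D between fractions -8.18 to 0.063, and short V families called between fractions 0 to 1.

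The remaining values kept their direction and side of the threshold, 506 of those for main comparisons and 189 for named V families, while 14 of named V families lost their call. The V families of TET, short against longer, could not be fitted with DESeq2 or with no filter. Short TET clonotypes number 4 to 9 in the WT libraries, which limits every share taken of them.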
